A study of Bos taurus with 15 samples.

Results

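The genes described here are the 119 cattle gene IDs, of 27607 in the tables, whose level moved one way when heme synthesis was blocked with succinylacetone and the other way when FLVCR2 was targeted by siRNA. They form 2 classes. In 95 of them the level was lower with succinylacetone than in control cells and higher with FLVCR2 siRNA than with scrambled siRNA, and in 24 it was the reverse. Members were chosen from the counts themselves. A member had a mean of at least 5 CPM (the count relative to its library's total) in all 4 groups, a log2 ratio of mean CPM between treated and control of at least 0.2 in size in both experiments, opposite signs, and no overlap between the CPM of treated and control libraries in either experiment. The sizes, directions and separations given below were therefore fixed in part by the choice, and are given as a description, with no test.

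All libraries were made from polyA RNA of endothelial cells of the bovine retina, which line its blood vessels. The control group had 4 libraries with the treatment label con, and the succinylacetone group had 4 with the label SA. The scrambled siRNA group had 4 libraries, and the FLVCR2 siRNA group had 3. Of these 3, 1 carries the treatment label siFLVCR2, while the labels of the others read siFLVCR3 and siFLVCR4. All were kept together because their titles share the abbreviation siF and the series names FLVCR2 as the only target. For doses, exposure times, donor animals and siRNA sequences, the sources used here give nothing. The labels do not tell separate cultures from repeat preparations, so the spread within a group may be technical.

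Heme is the iron-containing group of cytochromes, globins and many other proteins. It also acts as a signal that sets the activity of transcription and translation factors. Succinylacetone blocks aminolevulinate dehydratase, an early enzyme of heme synthesis, and so lowers the heme that a cell makes. FLVCR2 is a membrane transporter that has been described as a heme importer and, in vessels of the brain, as a choline transporter. The series title asks how heme inside cells, under the control of FLVCR2, bears on the growth of retinal vessels. Both treatments bear on that question, and the genes here are those for which their effects differed in direction.

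The tables name genes by Ensembl ID alone, and 0 of the IDs matched the reference gene table. The targeted gene, the endothelial markers and the pathways of the members were therefore not analysed here. Totals ran from 21228468 to 28449599 counts in the control libraries, from 18842196 to 31736292 with succinylacetone, from 19031911 to 29297141 with scrambled siRNA and from 27927005 to 34754170 with FLVCR2 siRNA. FLVCR2 siRNA replicate 1 was deeper than every scrambled library, and replicates 2 and 3 were deeper than 3 of the 4. The part of depth in the results was not tested. Over the 9727 IDs that met the level of 5 CPM, the median log2 ratio was 0.017 with succinylacetone and 0.011 with FLVCR2 siRNA, so both experiments were centred close to no change.

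Of those 9727 IDs, 2791 had a log2 ratio of at least 0.2 in size with succinylacetone and 948 with FLVCR2 siRNA. Both conditions held for 409 IDs, of which 242 had opposite signs: 171 lower with succinylacetone and 71 higher. Requiring no overlap between libraries left 119. The number in the reverse class depended on single libraries: it was 45 without FLVCR2 siRNA replicate 3, 37 without replicate 1 and 38 without scrambled siRNA replicate 2, and 22 without scrambled siRNA replicate 1 or FLVCR2 siRNA replicate 2. The larger class numbered 93 to 134 with each library left out. With a library left out the condition of no overlap is easier to meet, which by itself can raise these numbers. Separation in the siRNA experiment was met by 150 of the 242 and separation in the succinylacetone experiment by 178. Under the same thresholds 81 IDs moved alike, 59 of them higher and 22 lower with both treatments. Their median log2 ratios were 0.38 and 0.31 for the IDs that were higher, and -0.46 and -0.28 for those that were lower, with succinylacetone and with siRNA in that order.

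Without the size threshold, 233 of the 9727 IDs (2.4%) were separated in both experiments with the lower level in succinylacetone and the higher in FLVCR2 siRNA. The reverse pattern held for 69 IDs (0.709%). Each separation on its own held for more IDs. With succinylacetone 15.2% of IDs were separated and lower and 14.8% separated and higher. With FLVCR2 siRNA 8.93% were separated and higher and 3.54% separated and lower. Separation is easier to meet by chance with the fewer treated libraries of the siRNA experiment, so the shares of the experiments are not directly comparable.

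**Figure D1:**
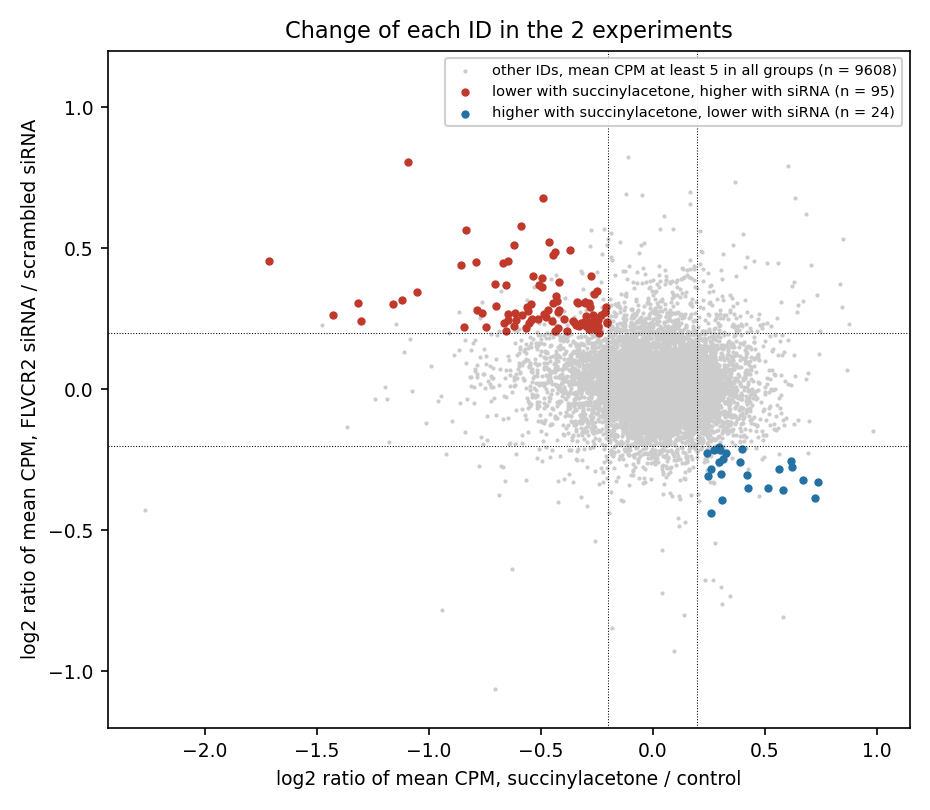
Each point is 1 of the 9727 gene IDs that met the required level; the horizontal axis is the log2 ratio of mean CPM of succinylacetone to control, the vertical axis that of FLVCR2 siRNA to scrambled siRNA, and the dotted lines mark 0.2 in both directions. The 95 red points lie in the upper left and reach -1.71 on the horizontal axis, and the 24 blue points in the lower right stay within 0.74 on it; grey points beyond the dotted lines in the same corners had overlapping libraries.

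The 95 members that were lower with succinylacetone had a median log2 ratio of -0.45 (1.37-fold lower), from -1.71 to -0.20. With FLVCR2 siRNA the same members had a median log2 ratio of 0.27 (1.21-fold higher), from 0.20 to 0.80. Most of the changes were small: 67 members changed at least 1.25-fold with succinylacetone, 29 at least 1.5-fold and 8 at least 2-fold. With the siRNA 26 changed at least 1.25-fold, 2 at least 1.5-fold and 0 at least 2-fold, and only 1 member reached 1.5-fold in both. The succinylacetone change was the larger in 77 of the 95. This was not counted over the 9727 IDs, of which 2791 reached 0.2 in size with succinylacetone and 948 with the siRNA. Across these members the sizes of the changes showed a weak relation (Pearson r = 0.29, Spearman rho = 0.30 over 95 members, which share libraries and depth and are not independent). The rule cut both sizes off at 0.2 and asked for separation, which may itself shape this relation, so nothing is read from it.

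ENSBTAG00000018281 had the largest opposite change, by the rule that ranks members on the smaller of their log2 ratios. Its level was 24.5, 20.4, 18.5 and 17.7 CPM in control libraries 1 to 4, and 7.66, 12.4, 8.58 and 9.42 CPM with succinylacetone. In the siRNA experiment it was 9.30, 11.6, 10.7 and 11.6 CPM in the scrambled libraries and 17.7, 18.2 and 20.7 CPM with FLVCR2 siRNA. The lowest control library thus lay above the highest succinylacetone library, and every FLVCR2 siRNA library above every scrambled one. The means were 20.3 ± 3.04 and 9.52 ± 2.06 CPM in the first experiment (SD, n = 4 each), an edgeR log2 fold change of -1.13 (SE 0.14). In the second they were 10.8 ± 1.09 CPM (SD, n = 4) and 18.9 ± 1.59 CPM (SD, n = 3), an edgeR log2 fold change of 0.78 (SE 0.0999). The counts behind these values ran from 177 to 697 in a library.

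ENSBTAG00000004329, the next by the same rule, changed by nearly the same factor in both experiments. It was at 19.97, 24.2, 24.0 and 24.2 CPM in the control libraries and at 17.2, 13.4, 16.5 and 14.5 CPM with succinylacetone. It was at 17.5, 15.5, 18.8 and 15.97 CPM with scrambled siRNA and at 24.2, 26.1 and 25.6 CPM with FLVCR2 siRNA. Control replicate 1 was the low library of its group and still lay above all succinylacetone libraries. The means were 23.1 ± 2.10 and 15.4 ± 1.77 CPM (SD, n = 4 each), an edgeR log2 fold change of -0.59 (SE 0.0864). In the siRNA experiment they were 16.9 ± 1.503 CPM (SD, n = 4) and 25.3 ± 0.985 CPM (SD, n = 3), an edgeR log2 fold change of 0.57 (SE 0.0859).

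2 further members of this class, picked after their values were seen and left without an ID, had its largest succinylacetone change and its highest level. The member with the largest difference in succinylacetone was at 78.8, 77.1, 80.1 and 83.1 CPM in the control libraries and at 27.9, 22.1, 25.9 and 21.4 CPM with succinylacetone, a 3.28-fold lower mean. With scrambled siRNA it was at 44.3, 36.5, 39.3 and 36.2 CPM and with FLVCR2 siRNA at 53.4, 52.9 and 54.4 CPM. Its siRNA levels thus all lay between the control and the succinylacetone libraries of the other experiment. The most abundant member was at 1534, 1582, 1466 and 1562 CPM in the control libraries and at 1207, 1238, 1219 and 1192 CPM with succinylacetone. It was at 1119, 1146, 1101 and 1072 CPM with scrambled siRNA and at 1477, 1371 and 1275 CPM with FLVCR2 siRNA, where its libraries were more spread than in any other group.

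The 24 members of the reverse class had a median log2 ratio of 0.36 (1.28-fold higher) with succinylacetone, from 0.24 to 0.74. With FLVCR2 siRNA their median was -0.28 (1.22-fold lower), from -0.44 to -0.21. At least 1.25-fold changes were found for 13 of them with succinylacetone and for 7 with the siRNA, and 5 had both. At least 1.5-fold changes were found for 5 with succinylacetone and for 0 with the siRNA, and 0 members changed 2-fold in either. As in the larger class, the succinylacetone change was mostly the larger, in 20 of 24, again without a count over all IDs. The sizes of the changes were again weakly related (Pearson r = 0.31, Spearman rho = 0.34 over 24 members, with the same shared libraries and the same limit from the rule).

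ENSBTAG00000012212 led this class. Its level was 7.91, 6.80, 7.93 and 8.01 CPM in the control libraries and 12.4, 13.7, 11.4 and 13.0 CPM with succinylacetone. It was 12.2, 10.6, 10.8 and 10.3 CPM with scrambled siRNA and 9.03, 8.86 and 7.27 CPM with FLVCR2 siRNA. The succinylacetone libraries stood well clear of the control libraries, while the siRNA groups lay closer together. The means were 7.66 ± 0.574 and 12.7 ± 0.955 CPM (SD, n = 4 each), an edgeR log2 fold change of 0.71 (SE 0.108). In the siRNA experiment they were 11.0 ± 0.844 CPM (SD, n = 4) and 8.39 ± 0.974 CPM (SD, n = 3), an edgeR log2 fold change of -0.39 (SE 0.115).

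ENSBTAG00000021068 followed it, at a low level. It was at 5.20, 5.34, 5.77 and 7.02 CPM in the control libraries and at 9.58, 9.61, 8.14 and 7.57 CPM with succinylacetone. It was at 6.04, 7.13, 5.84 and 6.66 CPM with scrambled siRNA and at 5.18, 5.59 and 4.26 CPM with FLVCR2 siRNA. In both experiments the nearest treated and control libraries almost met. Its edgeR log2 fold changes were 0.57 (SE 0.131) and -0.37 (SE 0.14), and the counts in a library ran from 115 to 304. With a mean of 5.01 ± 0.679 CPM with FLVCR2 siRNA (SD, n = 3) it was also the member closest to the required level.

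The most abundant member of the reverse class, picked after its values were seen and left without an ID, was at 159, 152, 167 and 157 CPM in the control libraries and at 202, 170, 202 and 193 CPM with succinylacetone. It was at 201, 179, 191 and 189 CPM with scrambled siRNA and at 158, 163 and 170 CPM with FLVCR2 siRNA. Its succinylacetone replicate 2 lay close above the highest control library.

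**Figure D2:**
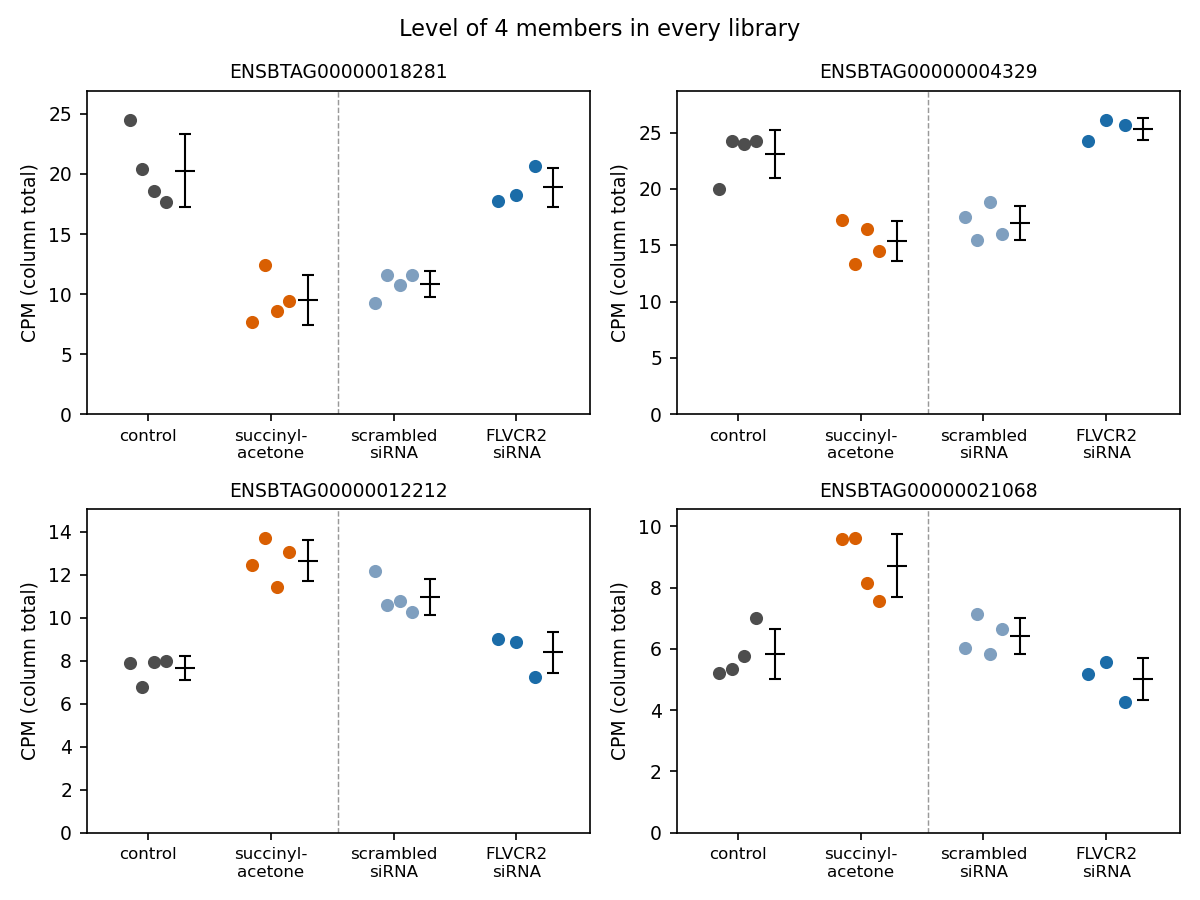
CPM in every library of the 4 gene IDs described by ID, by group, with the mean and SD to the right of the points; the dashed line parts the experiments, whose levels come from separate tables. In the upper panels the control and FLVCR2 siRNA points are the high ones, for ENSBTAG00000018281 at means of 20.3 and 18.9 CPM against 9.52 and 10.8 CPM; in the lower panels they are the low ones, for ENSBTAG00000012212 at 7.66 and 8.39 CPM against 12.7 and 11.0 CPM.

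The separation required by the rule held library by library. For the 95 members that were lower with succinylacetone, the median over members of the log2 ratio to the mean of the own control group was -0.43, -0.45, -0.39 and -0.48 in succinylacetone libraries 1 to 4. It was 0.29, 0.28 and 0.27 in FLVCR2 siRNA libraries 1 to 3. The rule required all 3 of these libraries to lie on the same side, so their likeness over the members does not bear on the differing labels. In the control and scrambled libraries the medians lay between -0.030 and 0.062. For the 24 reverse members the medians were 0.37, 0.34, 0.37 and 0.40 with succinylacetone and -0.25, -0.31 and -0.29 with FLVCR2 siRNA. Over all 9727 IDs the same medians lay between -0.045 and 0.047 in the 15 libraries.

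Summed over members, the larger class took 1.004% to 1.07% of the counts in the control libraries and 0.752% to 0.784% with succinylacetone. It took 0.801% to 0.8287% with scrambled siRNA and 0.978% to 1.01% with FLVCR2 siRNA. The reverse class was a small part of the RNA. Its sum was 781 to 815 CPM in the control libraries, 1013 to 1108 CPM with succinylacetone, 905 to 973 CPM with scrambled siRNA and 753 to 766 CPM with FLVCR2 siRNA.

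**Figure D3:**
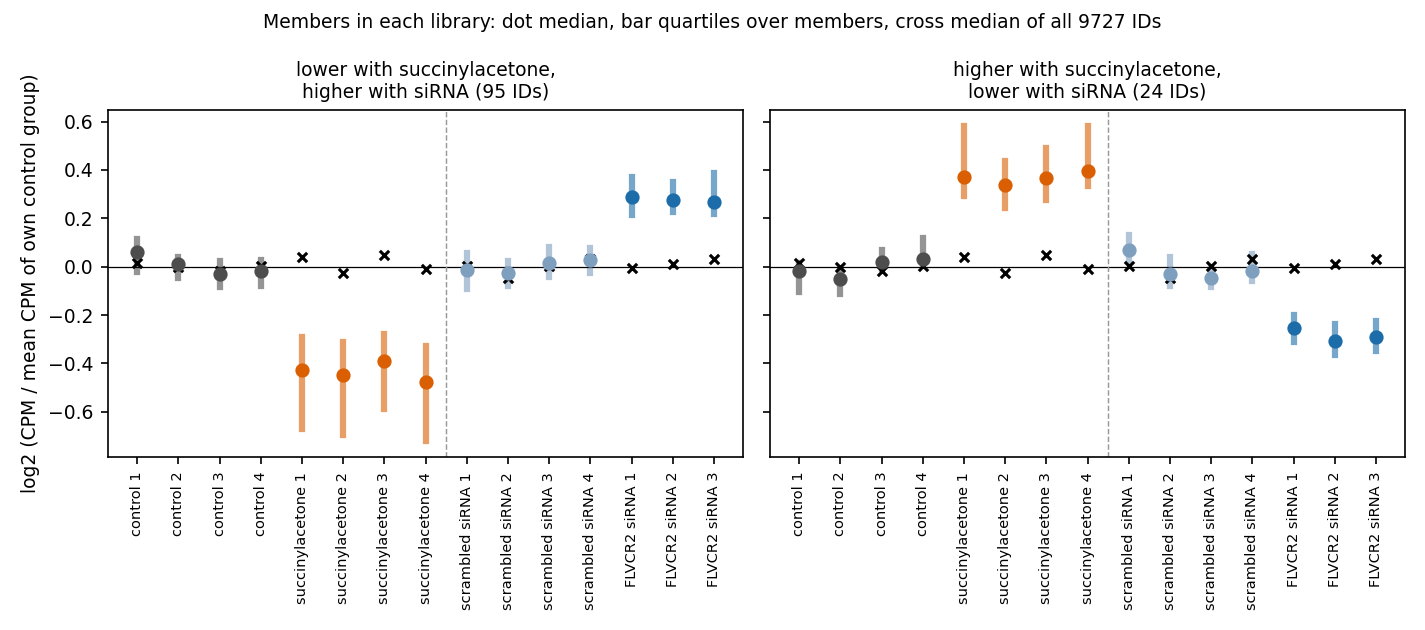
For each of the 15 libraries, the dot is the median and the bar the quartiles over members of the log2 ratio of CPM to the mean of the own control group, and the cross is the median over all 9727 IDs. In the left panel the succinylacetone medians lie between -0.48 and -0.39 and the FLVCR2 siRNA medians between 0.27 and 0.29, in the right panel the signs are exchanged, and the crosses stay near 0.

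The gap between the nearest treated and control libraries was wider with succinylacetone. In the larger class the median gap was 0.21 on the log2 scale with succinylacetone, from 0.018 to 1.47, and 0.089 with FLVCR2 siRNA, from 0.0010 to 0.61. In the reverse class the medians were 0.15 and 0.096. Separation thus often rested on a small distance in the siRNA experiment. In the larger class the FLVCR2 siRNA library nearest to the scrambled group was replicate 1 in 40 of 95 members, replicate 2 in 22 and replicate 3 in 33. The scrambled library nearest to the FLVCR2 siRNA group was replicate 1 in 29, replicate 2 in 10, replicate 3 in 32 and replicate 4 in 24. These numbers were not taken over all IDs. Within groups the median coefficient of variation was 6.25% in the larger class, 6.09% in the reverse class and 6.62% over the 9727 IDs, where the rule favours a low value.

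At each threshold the nearest values inside and outside were close together. The smallest siRNA log2 ratio of a member was 0.2003 in size, and the largest that missed only this condition was 0.1998. With succinylacetone these values were 0.204 and 0.190. The lowest group mean was 5.01 CPM inside and 4.78 CPM outside. A gap of 0.0010 on the log2 scale in the siRNA experiment put 1 ID inside, and a gap of -9.94e-05, an overlap, kept another out.

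Members were also looked up in the fits of all genes with edgeR (quasi-likelihood F test, called at a Benjamini-Hochberg adjusted p below 0.05). Of these, 94 of the 95 members of the larger class were called lower with succinylacetone, where 15.9% of 12727 genes were, and 35 were called higher with FLVCR2 siRNA, where 1.35% of 12976 genes were. In the reverse class 23 of 24 were called higher with succinylacetone (13.5% of genes) and 10 were called lower with FLVCR2 siRNA (0.432%). The members called with the siRNA were also called with succinylacetone, 35 and 10 in all, and 0.45% and 0.103% of the 12667 genes tested in both had these pairs of calls. In the contrast of the effects over all 15 libraries, 94 of 95 and 24 of 24 members were called, where 10.2% and 6.44% of 13193 genes were. The rule used the same contrasts, so nothing is read from these counts beyond their size. ENSBTAG00000018281 and ENSBTAG00000004329 were among the members called in both comparisons, while ENSBTAG00000012212 and ENSBTAG00000021068 were called with succinylacetone and missed the threshold with the siRNA.

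The number called in both depended on single siRNA libraries. Without FLVCR2 siRNA replicate 2 it was 18 in the larger class and 1 in the reverse class, and without replicate 3 it was 30 and 6. A fit with only the library labelled siFLVCR2 takes its spread from the scrambled libraries, so its calls among members are not given. Its number of genes called is listed only with the other processing settings, and nothing is read from it. The median log2 ratio to the scrambled mean in the library labelled siFLVCR2 was 0.29 in the larger class and -0.25 in the reverse class. The rule had required these directions, so nothing is read from them. The adjusted p of members not called with the siRNA ran from 0.0507 to 0.522 in the larger class and from 0.0909 to 0.368 in the reverse class (edgeR). Conversely, the edgeR calls included genes outside the rule. Of 57 genes called lower with succinylacetone and higher with the siRNA, 22 were not members, of which 14 had a log2 ratio under 0.2 with succinylacetone, 11 had overlapping libraries there and 3 were under 5 CPM in a group, with some counted more than once. Of 13 genes called in the reverse way, 3 were not members.

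Members came from all levels of expression. In the larger class 24 members had a mean over the groups of 5 to 20 CPM, 48 of 20 to 100 CPM and 23 of at least 100 CPM, with a median of 47.9 CPM. The reverse class held 10, 13 and 1 members in these ranges, with a median of 24.4 CPM. Over the 9727 IDs the numbers were 2945, 4697 and 2085, with a median of 36.6 CPM. In the larger class the succinylacetone change was smaller at higher levels, with medians of -0.56, -0.43 and -0.34 on the log2 scale in the 3 ranges. The siRNA change moved less, with medians of 0.29, 0.28 and 0.25. The reverse class showed no such order, with succinylacetone medians of 0.35 and 0.40 and siRNA medians of -0.27 and -0.30 in the lower and the middle range, and 0.27 and -0.21 for the 1 member in the highest. The rule used these ratios and asked for separated libraries, which may favour larger changes at low counts. Medians by level were not taken over all IDs, so nothing is read from the order.

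The groups were then set side by side across the experiments. CPM come from separate tables, so the difference between controls and the difference between experiments cannot be told apart. In 84 of the 95 members of the larger class the control mean lay above the scrambled siRNA mean, as it did in 42.6% of the 9727 IDs. The median log2 ratio of control to scrambled siRNA was 0.27 in this class, against -0.032 over all IDs. In the reverse class the control mean was above the scrambled mean in 4 of 24, with a median log2 ratio of -0.19. The rule favours this order, because a high control value makes the succinylacetone ratio lower and a low scrambled value makes the siRNA ratio higher, so it is no independent result.

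Each treated group was then compared with the control of the other experiment, and the groups overlapped in part of the members. In the larger class the median log2 ratio of FLVCR2 siRNA to control was 0.021, with quartiles of -0.13 and 0.15. Over all 9727 IDs this median was 0.044. The size of this ratio had a median of 0.15, against 0.11 over all IDs. The FLVCR2 siRNA mean was above the control mean in 53 of 95, and the libraries of these 2 groups overlapped in 53 members. Succinylacetone lay below scrambled siRNA in 68 of 95, with a median log2 ratio of -0.22, against -0.020 over all IDs. The size of that ratio had a median of 0.25, against 0.14 over all IDs, and the libraries of these groups overlapped in 41. Orders and overlaps were counted for members only, so they do not show how members differ from other IDs. Both overlaps held in 28 members, ENSBTAG00000018281 and ENSBTAG00000004329 among them. For ENSBTAG00000004329 the overlap of control with FLVCR2 siRNA was minimal, with control replicate 2 at 24.245 CPM and FLVCR2 siRNA replicate 1 at 24.227 CPM, and the group means were 23.1 and 25.3 CPM.

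The most frequent order of the group means in the larger class, in 37 members, was FLVCR2 siRNA highest, then control, scrambled siRNA and succinylacetone. In 20 members control was highest, followed by FLVCR2 siRNA, scrambled siRNA and succinylacetone, and in 16 control, FLVCR2 siRNA, succinylacetone and scrambled siRNA. The remaining orders held for 11, 6 and 5 members. In the reverse class the most frequent order, in 9 of 24, was succinylacetone, scrambled siRNA, control and FLVCR2 siRNA, the mirror image of the leading order of the larger class. Libraries of control and FLVCR2 siRNA overlapped in 12 of 24 members and those of succinylacetone and scrambled siRNA in 13. Both overlaps held in 9, among them ENSBTAG00000012212 but not ENSBTAG00000021068. Here, too, overlaps were counted for members only.

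**Figure D4:**
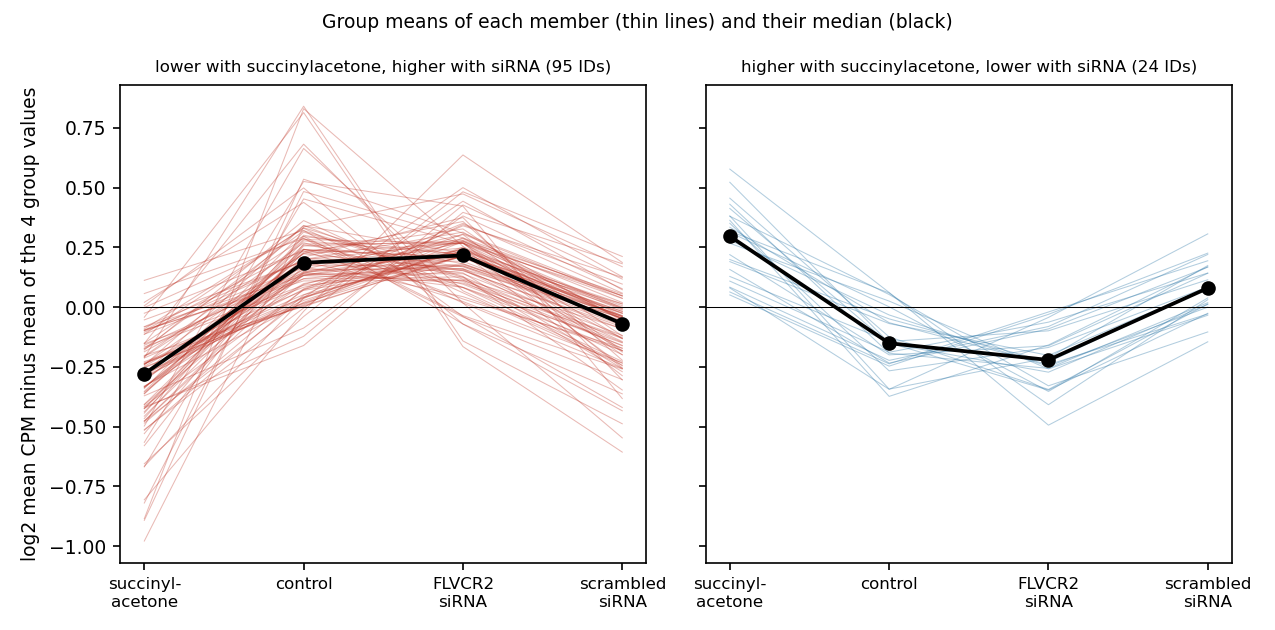
Each thin line is 1 member, drawn through the log2 of its mean CPM in the 4 groups after subtracting the mean of the 4 values, and the black line is the median over members. In the left panel control and FLVCR2 siRNA form the high middle. Their log2 ratio had a median of 0.021, where opposite signs cancel, and its size had a median of 0.15. In the right panel the same groups form the low middle. The spread of the lines shows that single members differ in which group is the extreme one.

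Whether members also varied together between libraries of the same group was examined on the deviations of log2(CPM + 1) from the group means, which do not enter the ratios of the rule, although the spread enters its separation. Over the 15 libraries the median Pearson correlation was 0.096 for the 4465 pairs within the larger class (quartiles -0.20 and 0.35), 0.13 for the 276 pairs within the reverse class (-0.14 and 0.37) and -0.056 for pairs with 1 member of each class (-0.31 and 0.20). Over all pairs of the 9727 IDs it was 0.068 (-0.21 and 0.33). With CPM scaled by TMM factors, edgeR's library scaling, these medians were 0.029, 0.18, -0.062 and -0.00010. All of these medians were weak correlations over few libraries, and pairs share libraries and depth.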

How the data were processed

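The members, the gene lists and the analysis were chosen with earlier results of these data known. The authors deposited 1 table of whole-number counts per gene for each of the 2 experiments, not normalized. Both tables list the same 27607 cattle Ensembl IDs, and 0 of their value columns were left out. Column names, per the file headers, end in "subread.BAM". The submitters' processing notes name featureCounts and DESeq2, and list the builds hg38 and ARS-UCD1.2 without a role. For the annotation and the strand setting nothing is stated, and overlapping or near-identical genes may share reads. The gene and marker lists prepared by symbol could not be applied, because no ID matched a symbol.

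CPM were counts divided by the column total, as the rule asks. The tests across genes were run on the counts in R 4.3.3 with edgeR 4.0.16 (TMM factors, filterByExpr, robust quasi-likelihood F test, Benjamini-Hochberg adjustment over all genes tested), each treatment against its own control, and all 15 libraries in 1 fit for the contrast of the effects. Standard errors were taken as the size of the log2 fold change over the root of F. The IDs printed are the 2 of each class with the largest smaller log2 ratio; other members are given without an ID. Alternatives used DESeq2 1.42.0, limma 3.58.1, other scalings and thresholds, the replicate block, and each library left out. The tests were checked on simulated counts, and figures were drawn with matplotlib 3.10.9.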

Additional observations from a re-analysis of the deposited data

Results flagged for a closer look

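Among 27 sets of 4 libraries looked at (totals, class medians and sums, and the 4 IDs), 2 had a library far from the other 3, measured as the gap to its neighbour over the range of the group; about 1 in 20 sets does so by chance. ENSBTAG00000004329 was at 19.97 CPM in control replicate 1, with the other control libraries between 24.0 and 24.2 CPM, a gap of 0.945 of the range. ENSBTAG00000012212 was at 6.80 CPM in control replicate 2, with the others between 7.91 and 8.01 CPM, a gap of 0.918 of the range.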

How the results depend on the processing

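The number of members followed the thresholds, as it must: 210 and 60 (larger and reverse class) at a log2 ratio of 0.1, 33 and 9 at 0.3, and 171 and 71 with overlap allowed. With each library left out in turn it ran from 93 to 134 and from 22 to 45, highest without FLVCR2 siRNA replicate 1 (134) and replicate 3 (45); the reverse class was also 38 without scrambled siRNA replicate 2 and 37 without FLVCR2 siRNA replicate 1. With the library labelled siFLVCR2 alone, an alternative chosen after seeing the data, it was 146 and 64, among them 75 of the 95 and 18 of the 24 members. The rule had already required this library to be separated for every member, and no overlap is easier to meet with 1 library. Nothing is therefore read from these numbers about the differing labels. TMM factors gave 95 and 24 members again, of which 85 and 20 were shared, and 56 and 11 members were kept under both other scalings and with every library left out. Members called in both comparisons numbered 56 in the larger class with no low-count filter, and 18 to 37 and 1 to 10 with each library left out. Genes called with FLVCR2 siRNA numbered 231, 385 with no low-count filter, 68 with that library alone, and 84 (without FLVCR2 siRNA replicate 2) to 217 with each library left out, 150 without scrambled siRNA replicate 3. The fit with only the library labelled siFLVCR2 takes its spread from the scrambled libraries, so nothing is read from its number of genes called. Left out in turn, libraries gave 2987 to 3658 genes for succinylacetone (3736 with all) and 1652 to 2122 for the contrast of the effects (2190). With a library left out the condition of no overlap is easier to meet, which by itself can raise the number of members. The part of this in the shifts, and any other cause, was not tested. TMM scaling moved the median correlation of deviations to 0.0286 in the larger class and to -0.0001 over all pairs. For the 4 IDs, 0 of 84 alternative fold changes reversed, and 1 moved by more than its standard error, ENSBTAG00000018281 without succinylacetone replicate 2 (-1.28). The replicate block gave 37 and 10 members called in both, and 3837, 277 and 2130 genes called. For treated and control libraries of the same number, the correlation of deviations lay between -0.0145 and 0.13 in the succinylacetone experiment. In the siRNA experiment it lay between -0.0145 and 0.0214. It was highest with the own number for 2 of 4 succinylacetone and 0 of 3 siRNA libraries. With 3 or 4 libraries in a group, these values cannot decide whether libraries of the same number had a common origin, which was not tested. Depth limits the smallest changes: the lowest count of a member in a library was 71.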
